A study of Arabidopsis thaliana with 8 samples.

Results

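The stretch of Arabidopsis thaliana chromosome 5 from AT5G49000 to AT5G55000 holds 694 loci in the TAIR10.1 gene table, of which 309 were measured here by a probe set with 1 gene only in the platform annotation. These 309 genes, all members of the stretch by locus number, stand beside 2682 other genes of chromosome 5 and 13333 genes in all. The stretch was chosen by the density of genes that differed between F5H-OE and WT on these same arrays. All values of F5H-OE against WT are therefore a description and carry no p-value, and those of F5H-OE against fah-1, which use the same F5H-OE arrays, are treated in the same way.

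Inflorescence stems of plants of 1.5 months were profiled on 8 arrays, each from a pool of stems of 5 plants, and the labels give ecotype Columbia-0 for all groups. The ecotype and gene copy number of the lines along chromosome 5 were not tested, so an intensity here may not stand for the level of a transcript alone. F5H-OE (n = 3) is a line labelled as overexpressing ferulate/coniferaldehyde 5-hydroxylase, fah-1 (n = 2) is labelled as the loss-of-function mutant of that enzyme, and WT (n = 3) is the wild type. Neither the promoter of the transgene nor the number of independent lines is given in the sources used here. The labels call the samples biological replicates, and nothing says that the pools were grown separately, so the p-values measure the spread between these samples.

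F5H is a cytochrome P450 of the phenylpropanoid pathway that opens the branch towards syringyl lignin, the lignin type of fibres in the stem, and towards sinapate esters. Neighbouring plant genes are mostly separate transcription units with unrelated roles, apart from tandem copies of a gene family. A chromosome stretch is thus a set of genes that share a place and not a pathway. In bulk stems, fewer cells of a type and less RNA per cell cannot be told apart.

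Median intensities were 112 to 118 over the arrays. F5H-OE replicate 1 stood apart from the others, with a mean correlation of 0.987 with its group and a GAPDH signal at the 3′ end that exceeded the 5′ end by 1.47 (log2), a measure of RNA integrity, against 0.510 to 0.853 on the rest. The level of F5H itself could not be checked, because none of the named probe sets was for it. Of the stem markers, 3 of 11 secondary wall and xylem genes and 1 of 3 phloem genes could be named, and none of the 7 photosynthetic, 4 flower and 3 root markers. The summed intensity of the 3 wall genes was 4520 to 5485 in F5H-OE, 3278 to 3427 in fah-1 and 4032 to 5379 in WT. The phloem marker SWEET11 had intensities of 576, 58.7 and 90.4 in F5H-OE, 528 and 619 in fah-1 and 312, 552 and 916 in WT, and its part in the results was not tested.

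In F5H-OE, 26 of the 309 genes of the stretch differed from WT at an adjusted p under 0.05 in the limma fit of the whole table, and these are the genes named as called below. They were 8.41% of the stretch, of which 11 were higher and 15 lower. Over all 22746 probe sets 2.65% were called, 1.29% higher and 1.36% lower, and nothing is read from the excess because it chose the stretch. The rest of chromosome 5 held 101 called genes (3.77%), 41 higher and 60 lower, and chromosomes 1 to 4 held 190 of 10273 (1.85%). Without F5H-OE replicate 1 the number of called genes in the stretch was 47, and without F5H-OE replicate 2, F5H-OE replicate 3, WT replicate 2 or WT replicate 3 it was 15, 9, 11 and 10. These were 15.2%, 4.85%, 2.91%, 3.56% and 3.24% of the stretch, against 7.73%, 1.57%, 1.04%, 1.17% and 1.24% of all probe sets. All 26 remained among the 47 called without F5H-OE replicate 1, and 19 of the 26 lost the call in at least 1 alternative setting.

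The median size of the log2 fold change was 0.66 over the 26, and 7 of them differed more than 2-fold, 3 higher and 4 lower. The F5H-OE and WT arrays did not overlap for any of the 26, an outcome that the call on the same arrays favours. They did not overlap for 98 genes of the stretch (31.7%) and for 20.5% of all 13333 genes. For all 26 called genes the F5H-OE arrays also lay outside both fah-1 arrays. Over the whole stretch 68 genes (22.0%) had F5H-OE outside all WT and fah-1 arrays, 30 above and 38 below. Over all probe sets it was 14.0%.

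**Figure D1:**
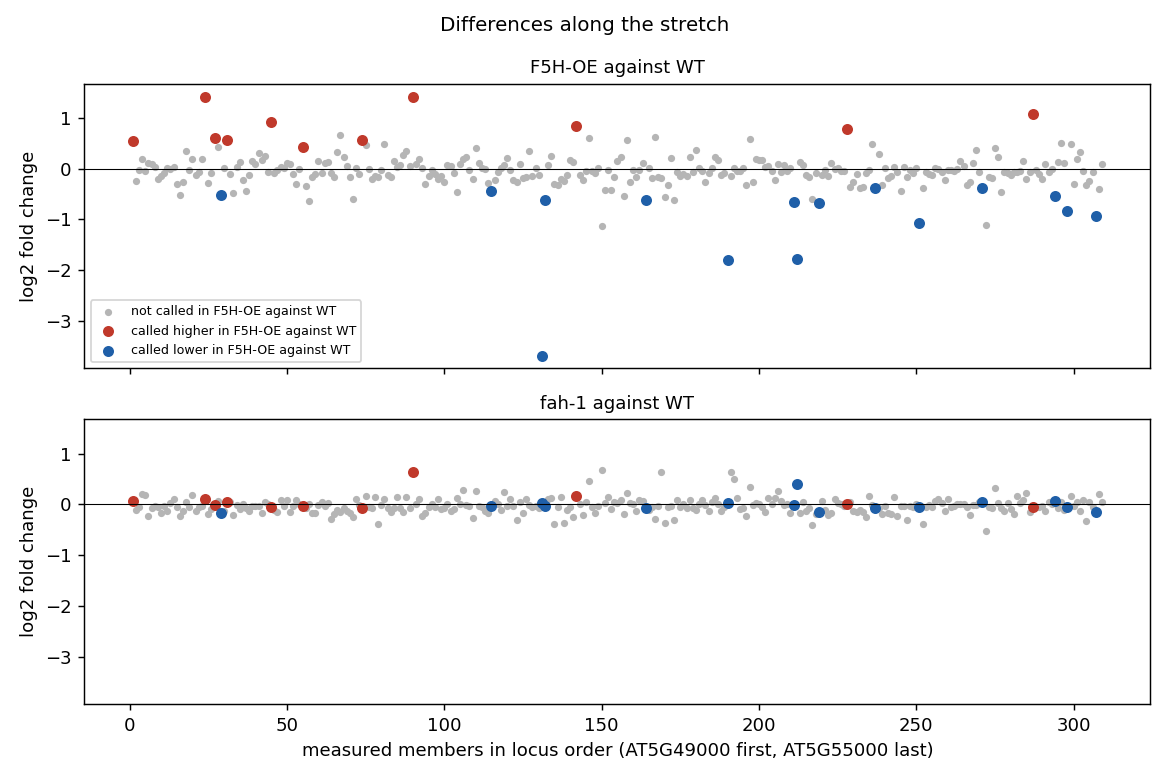
Log2 fold change of the 309 measured genes in locus order, for F5H-OE against WT (top) and fah-1 against WT (bottom). Large red and blue points are the 11 genes called higher and the 15 called lower in F5H-OE against WT and keep their colour below, where they lie between -0.17 and 0.64.

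Of the genes called higher, AT5G49500 and AT5G50915 showed the largest rise. AT5G49500, which encodes a subunit of the signal recognition particle that directs nascent proteins to the endoplasmic reticulum, had intensities of 249, 309.7 and 231 in F5H-OE, 104 and 105 in fah-1 and 91.9, 102 and 100.2 in WT. It was 2.67-fold higher in F5H-OE than in WT (263 ± 41.1 against 98.0 ± 5.34, SD, n = 3 each), with both fah-1 arrays just above the WT range. AT5G50915, a gene of the basic helix-loop-helix transcription factor family, had intensities of 238, 213 and 292 in F5H-OE, 170.3 and 121 in fah-1 and 71.6, 107 and 101 in WT. It was also 2.67-fold higher in F5H-OE than in WT, and here fah-1 stood between the other groups without overlap.

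BGLU41, a beta-glucosidase of the family that releases sugars from glucosides, had intensities of 60.5, 72.1 and 80.4 in F5H-OE and 41.1, 30.3 and 29.9 in WT. Its mean was 71.0 ± 10.0 in F5H-OE and 33.7 ± 6.34 in WT (SD, n = 3 each), and the fah-1 arrays at 35.2 and 29.2 lay near WT. AT5G49900, of the glucosylceramidase family that cleaves sugar from membrane lipids, had intensities of 853, 586 and 606 in F5H-OE and 378, 353 and 332 in WT. The array that stands apart was the highest of the 3, and the gene was 1.90-fold higher in F5H-OE. AT5G53340, a galactosyltransferase that starts the sugar chains of arabinogalactan proteins of the wall and plasma membrane, had intensities of 525, 504 and 505 in F5H-OE and 331, 302 and 269.6 in WT. The F5H-OE arrays lay close together, 1.70-fold above WT, and fah-1 was at 308 and 293.

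TRM24, of the TON1 Recruiting Motif family that is tied to the organisation of cortical microtubules, had dim intensities of 26.1, 27.6 and 22.3 in F5H-OE and 16.6, 12.5 and 13.4 in WT. In WT only 1 of 3 arrays lay above the TrpnX control probe sets, which read a transcript absent from plants, so the rise is a bound of at least 1.67-fold.

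The other 5 genes called higher differed by less than 1.6-fold. AT5G49555, of an FAD-dependent oxidoreductase family, had intensities of 308, 359 and 339 in F5H-OE and 189, 249 and 228 in WT. AT5G50420, of the O-fucosyltransferase family, had intensities of 201, 258 and 266 in F5H-OE and 161, 160.2 and 164 in WT. Its lowest F5H-OE value came from replicate 1. AT5G49610, an F-box gene of protein turnover, had intensities of 224, 246 and 235 in F5H-OE and 158, 155 and 164 in WT. AT5G49000, of the kelch-repeat family and the first locus of the stretch, had intensities of 209, 205 and 202 in F5H-OE and 145, 138 and 139.8 in WT. The F5H-OE and WT arrays of both lay close together within their group, with log2 fold changes of 0.56 and 0.54. AT5G50110, of a methyltransferase family, showed the smallest rise, with a log2 fold change of 0.43.

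AT5G51620 showed by far the largest difference of the stretch. Its intensities were 12.5, 19.3 and 16.2 in F5H-OE, 194 and 213 in fah-1 and 282, 193 and 149 in WT. The log2 fold change of F5H-OE against WT was -3.67, and because 1 of the 3 F5H-OE arrays was not above the TrpnX level, the fall is given as at least 12.5-fold. Both fah-1 arrays lay inside the WT range. The next locus, AT5G51630, a disease resistance gene of the class with a nucleotide-binding site and leucine-rich repeats, was called lower too, with intensities of 25.4, 28.7 and 27.3 in F5H-OE and 39.0, 41.5 and 44.6 in WT. It was 1.54-fold lower in F5H-OE, and fah-1 stood at 38.3 and 43.0.

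AT5G52740, a gene of the family with a heavy-metal-associated domain, had intensities of 27.9, 20.5 and 26.9 in F5H-OE, 74.3 and 102 in fah-1 and 100.4, 90.7 and 69.9 in WT. It was 3.46-fold lower in F5H-OE than in WT. For the following loci of the same family the log2 fold changes of F5H-OE against WT were -0.14 for AT5G52750, 0.01 for AT5G52760 and -0.04 for AT5G52770, and none was called.

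AT5G53050, an alpha/beta hydrolase gene, had intensities of 269.9, 118 and 122 in F5H-OE, 747 and 671 in fah-1 and 557, 675 and 416 in WT. The mean was 169.8 ± 86.7 in F5H-OE and 549 ± 129 in WT (SD, n = 3 each), with F5H-OE replicate 1 more than 2-fold above the other F5H-OE arrays and still below every WT array. The call ended without F5H-OE replicate 2 or 3 and without any 1 of the WT arrays. Its neighbour among the measured genes, AT5G53030, had intensities of 40.0, 42.8 and 39.8 in F5H-OE and 58.9, 63.7 and 70.2 in WT. These genes and the AT5G51620 and AT5G51630 loci were the only 2 places in the stretch where called genes followed each other with no measured gene between, and in both the direction was the same.

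AT5G53880 had intensities of 438, 463 and 479.7 in F5H-OE, 898 and 990.4 in fah-1 and 1114, 960.2 and 856 in WT, a 2.11-fold fall in F5H-OE. PDC2, a pyruvate decarboxylase of ethanol fermentation, was the brightest of the called genes, at 1634, 1369 and 1169 in F5H-OE, 2133 and 2593 in fah-1 and 2443, 3168 and 2335 in WT. Its fall of 1.90-fold in F5H-OE came with SDs of 233 and 453. SGP1, a small GTPase gene, had intensities of 251, 196 and 239 in F5H-OE, 312 and 497 in fah-1 and 436, 421 and 369 in WT. Here fah-1 replicate 1 lay below every WT array. The calls of PDC2 and SGP1 also ended without F5H-OE replicate 2 or 3 and without any 1 of the WT arrays.

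AT5G53150, a DnaJ-domain gene of the co-chaperone type, had intensities of 56.6, 70.2 and 55.8 in F5H-OE and 91.6, 96.2 and 103 in WT. AT5G52190, of the sugar isomerase family, had intensities of 147, 155 and 145 in F5H-OE and 211, 221 and 255 in WT. Neither overlapped between these groups, with log2 fold changes of -0.68 and -0.62. The other 5 genes called lower were AT5G54720, an ankyrin-repeat gene, with a log2 fold change of -0.54, the DnaJ-domain gene AT5G49580 with -0.51, the F-box gene AT5G51380 with -0.45, and AT5G53540, of the AAA-type ATPase family, and CcdA, a thylakoid membrane protein that passes reducing equivalents for cytochrome c assembly, both with -0.39. AT5G54720 was above the TrpnX level in 1 of 3 F5H-OE arrays, so that its fall is a bound of at least 1.41-fold.

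**Figure D2:**
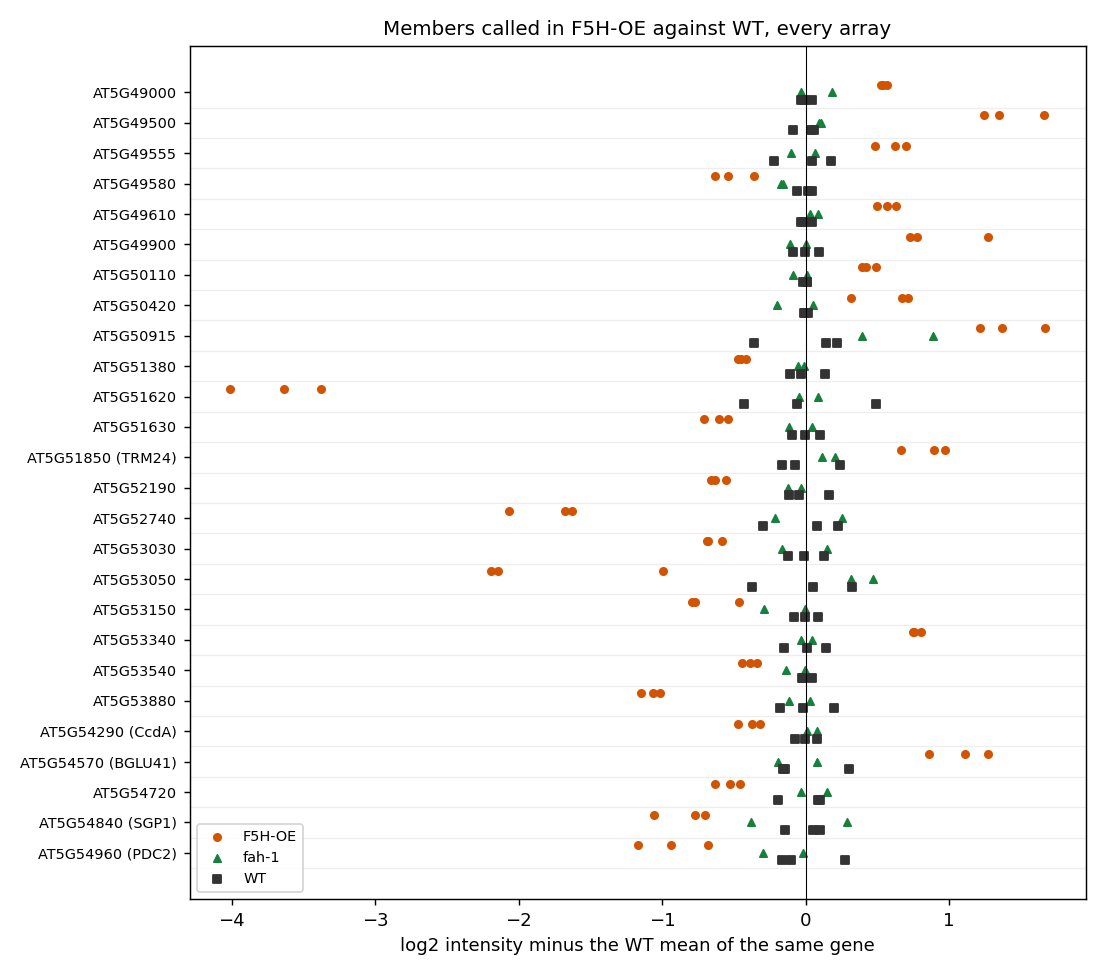
Log2 intensity of each array minus the WT mean of the same gene, for the 26 called genes in locus order, with F5H-OE as orange circles (n = 3), fah-1 as green triangles (n = 2) and WT as black squares (n = 3). The F5H-OE points lie to 1 side of all other points in every row, while those of fah-1 stand among or beside the WT points except for AT5G50915.

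The direction of the called genes was not even along the stretch. From AT5G49000 to AT5G50999, 8 of 9 called genes were higher in F5H-OE, and beyond AT5G50999 3 of 17 were higher and 14 lower. Probe sets listed with several genes are left out of these counts, and 4 of them with loci from AT5G50520 to AT5G50665 were called lower, at log2 fold changes of -0.80 to -0.99. This division was made after the values were seen and has no test. In groups of 1000 locus numbers the share called in the stretch was between 3.64%, from AT5G52000, and 12.5%, from AT5G53000. Genes on each side of the stretch were called about as often: 31 of 309 (10.0%) from AT5G43000 to AT5G48999, 10 higher and 21 lower, and 23 of 296 (7.77%) from AT5G55001 to AT5G60999, 11 higher and 12 lower. Before AT5G39000 15 of 1556 genes (0.964%) were called, against 45 of 507 (8.88%) from AT5G39000 to AT5G48999. This cut lies where the share per group of 1000 locus numbers changes, from 1.69% to 7.32%, and has no test. On the other side, 41 of all 619 genes after the stretch (6.62%) were called, 18 higher and 23 lower. Just inside and just outside the lower end, AT5G49000 and AT5G48990 had log2 fold changes of 0.54 and -0.10, and at the upper end FIP2 (AT5G55000) and AT5G55010 had 0.09 and -0.05.

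**Figure D3:**
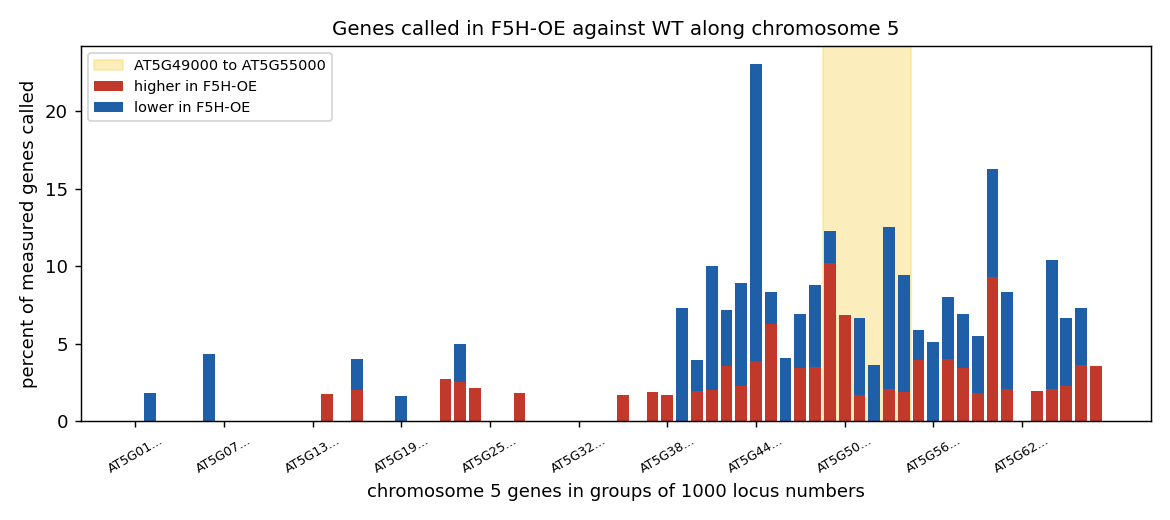
Percent of measured genes called in F5H-OE against WT in groups of 1000 locus numbers along chromosome 5, split into genes higher (red) and lower (blue) in F5H-OE, with the stretch shaded. The called shares of the shaded groups lie between 3.64% and 12.5%, and the highest elsewhere is 23.1%.

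Among genes of the stretch that were not called, the median size of the log2 fold change of F5H-OE against WT was 0.13, against 0.11 over those not called on the rest of chromosome 5 and 0.10 on chromosomes 1 to 4. With called genes included it was 0.15, against 0.12 and 0.11. In fah-1 against WT the medians were 0.08 in the stretch, 0.09 on the rest of chromosome 5 and 0.08 on chromosomes 1 to 4. The median log2 intensity of the stretch was 6.14, that of the rest of chromosome 5 was 6.68 and that of chromosomes 1 to 4 was 6.32, and its part in these sizes was not tested. Of the genes not called, 2 differed more than 2-fold, AT5G51950 with a log2 fold change of -1.13 and AT5G54300 with -1.11, and in both the F5H-OE arrays varied more than 2-fold among themselves.

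**Figure D4:**
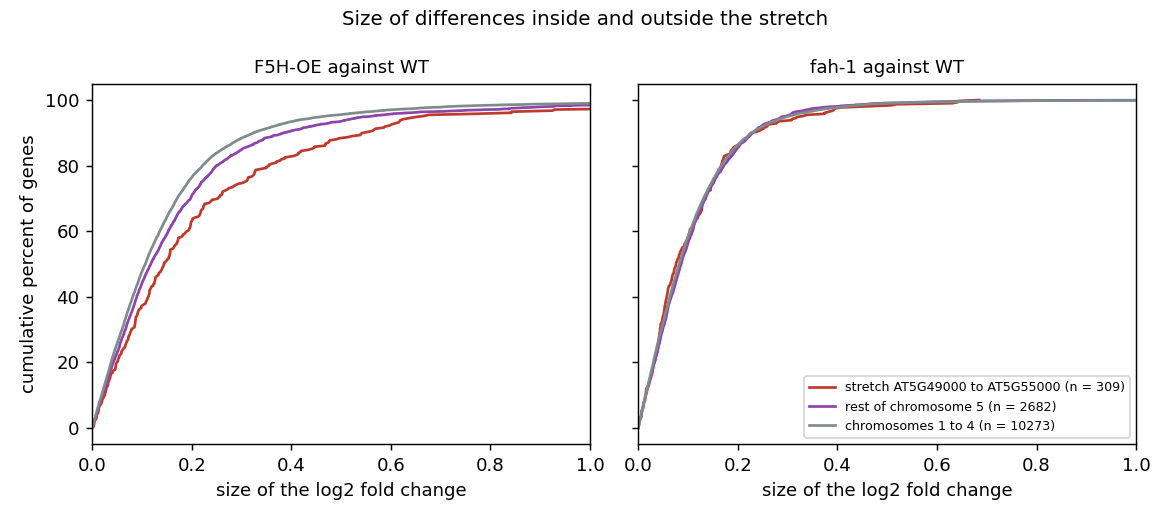
Cumulative percent of genes by the size of the log2 fold change, for F5H-OE against WT (left) and fah-1 against WT (right), in the stretch (309 genes), the rest of chromosome 5 (2682) and chromosomes 1 to 4 (10273), with the axis ending at 1. On the left the stretch runs to the right of the others (median sizes 0.15, 0.12 and 0.11), and on the right the lines lie close together.

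Setting fah-1 against WT addresses whether the same genes differ when F5H function is missing. The stretch was not chosen on this comparison, although it shares the WT arrays. No gene of the stretch was called (limma, lowest adjusted p = 0.898), where 0.00879% of all probe sets were. At an unadjusted p under 0.05 there were 15 of 309 genes (4.85%), 5 higher and 10 lower, against 5.02% of all probe sets. Among the 26 genes called in F5H-OE, the log2 fold changes of fah-1 against WT ran from -0.17 to 0.64, with SEs of 0.076 to 0.352, and 24 of 26 were smaller than 0.20 in size. Over all 13333 genes the 90th percentile of this size was 0.228, so nothing particular to the called genes is read from the 24. The 95% interval of the fah-1 difference included 0 for 25 of the 26. These SEs and intervals rest on 1 estimate of the spread over all 8 arrays, F5H-OE included. An interval that includes 0 does not show equal levels. For AT5G51620 the fah-1 difference was 0.02 with an interval from -0.59 to 0.62, and for AT5G52740 it was 0.02 with an interval from -0.45 to 0.49. On the log2 scale both fah-1 arrays were nearer to the WT mean than to the F5H-OE mean for 25 of the 26 genes, and for AT5G50915 1 of 2 was, though the genes were chosen for the distance between F5H-OE and WT.

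AT5G50915 was the called gene with the largest fah-1 difference, 0.64 ± 0.22 (log2 fold change, SE), with an unadjusted limma p of 0.019 and an adjusted p of 0.950. The other genes with the smallest p above WT were AT5G51250, of the kelch-repeat family, with a log2 fold change of 0.28, AT5G52970, a thylakoid lumen protein gene, with 0.26, and the heavy-metal-associated genes AT5G52760 with 0.51 and AT5G52750 with 0.63. AT5G52750 had intensities of 182 and 206 in fah-1, both above the WT arrays at 98.7, 126 and 157, while the difference of AT5G52740 beside it was 0.02. Those below WT were AT5G51770, a protein kinase gene, with -0.37, AT5G53800 with -0.31, AT5G51280, an RNA helicase gene, with -0.26, AT5G50780, of the microrchidia ATPase family of gene silencing, with -0.38, and AT5G53140, a type 2C protein phosphatase gene, with -0.19. Adjusted p-values of these 10 were 0.898 to 0.965 by limma, so none passed.

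In F5H-OE against fah-1, 15 of 309 genes were called (4.85%), 7 higher and 8 lower, where 1.97% of all probe sets were called, 1.14% higher and 0.835% lower. The rest of chromosome 5 had 88 of 2682 (3.28%). All 15 were among the 26 called against WT, an outcome that the shared F5H-OE arrays favour, and all 26 had the same sign in both. The log2 fold changes against fah-1 were -3.69 for AT5G51620, -2.17 for AT5G53050, -1.81 for AT5G52740, -1.04 for AT5G53880, 1.32 for AT5G49500, 1.14 for BGLU41, 0.98 for AT5G49900 and 0.77 for AT5G53340. AT5G50915, with a log2 fold change of 0.77, was not called, nor were PDC2 with -0.77 and SGP1 with -0.79. Without F5H-OE replicate 1 there were 33 called genes, and without F5H-OE replicate 2, F5H-OE replicate 3, fah-1 replicate 1 or fah-1 replicate 2 there were 6, 5, 4 and 2.

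Few genes with a role in walls, lignin or other listed processes had a probe set named for them alone. The rest may be on the array without a name, so their levels are not known here. Of 110 genes of the stretch placed on 9 role lists, 24 were measured, and 2 of these were called in F5H-OE against WT, both lower (8.33%, against 8.41% of the stretch and 2.65% of all probe sets): AT5G51630, 1 of 2 measured defence signalling genes, and PDC2, 1 of 6 measured genes of sugar and primary metabolism. None of the 6 measured wall and lignin genes was called. PMEPCRF, a pectin methylesterase, had intensities of 2241, 2177 and 2184 in F5H-OE, 2424 and 2407 in fah-1 and 2594, 2595 and 2737 in WT, with no overlap between F5H-OE and WT and a log2 fold change of -0.26. THE1, a receptor kinase that senses the state of the wall, had a log2 fold change of 0.41. Its intensities of 339, 227 and 229 in F5H-OE, highest in replicate 1, overlapped those of 169, 188 and 236 in WT. The peroxidase gene AT5G51890 stood at 0.61, with overlapping intensities of 136, 328 and 213 in F5H-OE and 76.5, 262 and 134 in WT. In fah-1 against WT, THE1 stood at 0.32 and AT5G51890 at 0.46 (unadjusted limma p of 0.170 and 0.382). The direction was the same, an outcome that the shared WT arrays favour. The median log2 fold change of the 6 wall and lignin genes in F5H-OE against WT was -0.18, against -0.05 over the stretch.

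No other measured gene of the lists was called. UF3GT, an anthocyanin xylosyltransferase and the 1 measured flavonoid gene, had a log2 fold change of -0.01. The 5 measured transcription factor genes had a median of -0.12, with ILR3, a regulator of iron responses, at -0.07. AT5G52810, the other defence gene, stood at 0.59, the heat shock gene AT5G51440 at 0.22 and LPA2, an assembly factor of photosystem II, at -0.16. In fah-1 against WT these stood at 0.34, -0.03 and 0.11. The 2 measured transporters of the multidrug efflux family, AT5G52450 and AT5G52050, stood at -0.62 and -0.54 in F5H-OE against WT, and at -0.31 and -0.19 in fah-1 against WT. In AT5G52450 the F5H-OE arrays were split, at 735 in replicate 1 and 386 and 387 in the others, against 738, 681 and 788 in WT. SWEET13, a sugar exporter, had a log2 fold change of 0.49. No gene of cell division, chromatin and cytoskeleton on the list had a probe set named for it alone. None of the 24 was called in fah-1 against WT.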

How the data were processed

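The deposited intensity values, 1 per probe set and array on a linear scale, came from RMA by the authors, per the submitters' processing notes, and its version is not named. The method makes array quantiles nearly equal, and neither chip definition nor filter is recorded. Log2 of the intensity was taken with no pseudocount. Of 22810 probe sets 64 controls were left out, and limma 3.58.1 (R 4.3.3) fitted a mean per group over the 8 arrays (2-sided, Benjamini-Hochberg over 22746 probe sets, threshold 0.05), after the procedure was tested on simulated data.

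Of the probe sets, 13513 had 1 gene in the platform annotation, 13436 of which matched the TAIR10.1 gene table, and 48 more kept a locus number as name. The annotation gave any gene for 14016 of the 22746 probe sets. A gene counted as measured is 1 with a named probe set, and others may be on the array without a name. The brightest probe set stood for a gene. The TrpnX controls (highest of 3 per array, log2 3.65 to 3.93) set the level for bounds, where a dim array counts at no less than this level. No coordinates are given, since no build is stated with the values. The members, the role lists, the rule for named genes (all called genes, with every array for up to 10 rises and 10 falls, the 5 smallest p per direction in fah-1, and up to 4 per list) and the tests were chosen with earlier results of these data known. Promoter motifs were planned and not analysed here. The alternatives were scaling, filters, arrays left out or weighted, other estimates of the spread, a replicate block, probe set choice and wider ends.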

Additional observations from a re-analysis of the deposited data

How the results depend on the processing

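The number of genes of the stretch called in F5H-OE against WT, 26, was 61 with array weights, 17 with the replicate number as a block and 9 to 47 with each F5H-OE or WT array left out in turn. It stayed within 1.5 times of 26 in the other alternatives. The share called over all probe sets moved as well, from 2.65% to 11.1% with array weights and 1.76% with the replicate block. Without F5H-OE replicate 1 that share was 7.73%, and without F5H-OE replicate 3 it was 1.04%. Against fah-1, 15 genes became 8 in a fit of these 2 groups alone, 54 with array weights, 9 with the replicate block and 2 to 33 with each F5H-OE or fah-1 array left out. On the rest of chromosome 5, 101 genes became 346 with array weights and 54 to 222 with F5H-OE or WT arrays left out. In fah-1 against WT no gene of the stretch was called by limma in any alternative. Of the 26 calls, 7 held in all alternatives, those of AT5G49500, AT5G49610, AT5G50915, AT5G51620, AT5G52740, AT5G53340 and AT5G53880, and the call of AT5G50420 ended most often, in 10 of 15. None of the 26 called genes changed sign in F5H-OE against WT. The causes were not tested. Same-numbered F5H-OE and WT arrays had correlations of 0.17, 0.33 and -0.02 in their deviations, and F5H-OE and WT arrays of unlike number -0.25 to 0.05. WT replicates 1 and 2 correlated best with the F5H-OE array of their own number, and WT replicate 3 did not. Whether the numbers pair the samples is thus not settled, and the main fit used no pairing. The number of arrays limits the precision, and 26 of the 309 genes were above the TrpnX level on no array, so that changes there could not be measured.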

Other observations

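Probe sets listed with several genes are not among the 309 genes, and 15 of them held a locus of the stretch. Of these, 7 were listed with loci that both lie between AT5G50510 and AT5G50710, where the gene order of the loci from AT5G50510 to AT5G50610 is repeated from AT5G50620 to AT5G50710. In F5H-OE against WT 4 of these 7 were called, all lower, at 0.502 to 0.576 of the WT level, where 2.65% of all probe sets were called, and all 4 were also called against fah-1. The probe set for AT5G50550 and AT5G50650 had intensities of 81.5, 97.0 and 96.3 in F5H-OE, 172 and 194 in fah-1 and 187, 179 and 181 in WT. That for AT5G50520 and AT5G50630 had 232, 212 and 217 in F5H-OE, 406 and 423 in fah-1 and 393, 335 and 453 in WT. Those for AT5G50530 with AT5G50640 and for AT5G50565 with AT5G50665 both stood at -0.80 (log2 fold change against WT). No F5H-OE array reached the lowest WT array in these 4.

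The log2 fold changes of fah-1 against WT of the 4 probe sets were -0.19 to 0.08, none called. The probe set for AT5G50560 and AT5G50660 stood at -0.34 against WT and was not called, and the 2 others of the block were dim, at intensities under 20. The 1 measured gene of the block with a probe set of its own, AT5G50540, had a log2 fold change of -0.20. None of the 8 other probe sets with several genes was called. These probe sets cannot tell the repeated loci apart, the copy number of the block in the F5H-OE line was not tested, and they were picked out after their values were seen.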
